A study of Mus musculus with 27 samples.

Results

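The step from 0.5 h to 2 h after peroxide was examined in E14Tg2a mouse embryonic stem cells, a feeder-independent male line widely used as wild type. The series holds 27 poly(A) RNA sequencing libraries in 9 groups of 3 biological replicates, and the step uses 6 of them, the 3 collected at 0.5 h and the 3 collected at 2 h. Members were chosen by time point alone, and 12172 of the 38352 deposited genes entered the test because they reached 1 FPKM (fragments scaled to gene length and library size) in at least 3 of those 6 libraries. Both groups were wild type, grew on gelatin in serum medium with LIF and 2i, and received 500 µM hydrogen peroxide for 30 min per the labels' protocols, while the series text gives the dose in mM. The 0.5 h cells were taken at the end of the exposure. The 2 h cells had their medium exchanged for spent medium of untreated cultures after the exposure, and no group received the exchange alone, so time, removal of peroxide and the new medium cannot be told apart in this step.

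Immediate early genes are transcribed within minutes of a stimulus without new protein synthesis, mostly through MAP kinases acting on factors such as SRF, CREB and the Jun and Atf proteins. Their products include the Fos, Jun and Atf3 subunits of the AP-1 transcription factor, the zinc finger factor Egr1, and feedback phosphatases such as Dusp1 that switch the kinases off. Many of their mRNAs are short-lived, so levels can rise and fall within hours. In embryonic stem cells, Sox2, Nanog and Pou5f1 hold the pluripotent state, LIF and Stat3 support it, and Fgf4 signalling through the same MAP kinases primes the cells to leave it.

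Between 0.5 h and 2 h, 141 of 12172 genes passed the limma test at an adjusted p below 0.05, which is 1.16% of the genes tested. Of these, 41 were higher at 2 h (0.337%) and 100 were lower (0.822%), and 28 changed by at least 2-fold on the log2(FPKM + 1) scale on which all changes below are given. In all 141 the 0.5 h and 2 h libraries did not overlap, so that trait adds no support to the single calls below. Genes that did not pass, such as Atf4 and Btg2, had no overlap either, and the share over all genes tested is not given here. At an unadjusted p below 0.05, 727 genes were higher and 901 lower. The median change over all genes tested was -0.03, with 5365 genes above 0 and 6807 below 0. The median standard error (SE) was 0.129. With 1.16% of all genes called, a list below with 0 or 1 called member is not set apart by that count, and no list was tested as a set. Among the largest rises were those of Egr1, Fos, Atf3, Jun, Dusp1 and Gadd45g. The steepest falls were in genes of hepatocytes, including Hamp, Serpina1d and Ces1c, which are outside the list described below. Genes of other kinds that were lower include the mitochondrial tRNA mt-Tl1, Txnip, Myc and Fgf4.

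Before the members are described, 2 features of the libraries need their values. The first 2 h library (replicate 1) stood apart from the other 5: its values summed to 378395 FPKM against 314196 to 319701, its change against the 0.5 h libraries rose by 0.305 for each 10 points of GC content against 0.052 and 0.012 in the other 2 h libraries, and its ribosomal protein genes were shifted by 0.848 against 0.140 and 0.127. Relative depth, read from the steps of low FPKM values, was 0.974 to 1.01 across the 6 libraries, so depth did not separate them, while absolute depth is unknown. The second feature was RNA of hepatocyte genes, which the labels do not give a reason for: a list of 31 such genes summed to 68.8, 99.8 and 79.7 FPKM in the 0.5 h libraries and to 4.82, 3.87 and 5.01 FPKM at 2 h. The embryonic stem cell markers were present throughout, with Pou5f1 at 558 to 896 FPKM. Calls lost without 2 h replicate 1 are therefore given beside the genes and lists described below, and the hepatocyte genes are described on their own. Leaving out any single library of the step lowered the count of called genes, to between 55 and 80. A call lost in this way therefore need not be particular to replicate 1. In bulk RNA, fewer cells of a type and less RNA per cell cannot be told apart.

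**Figure D1:**
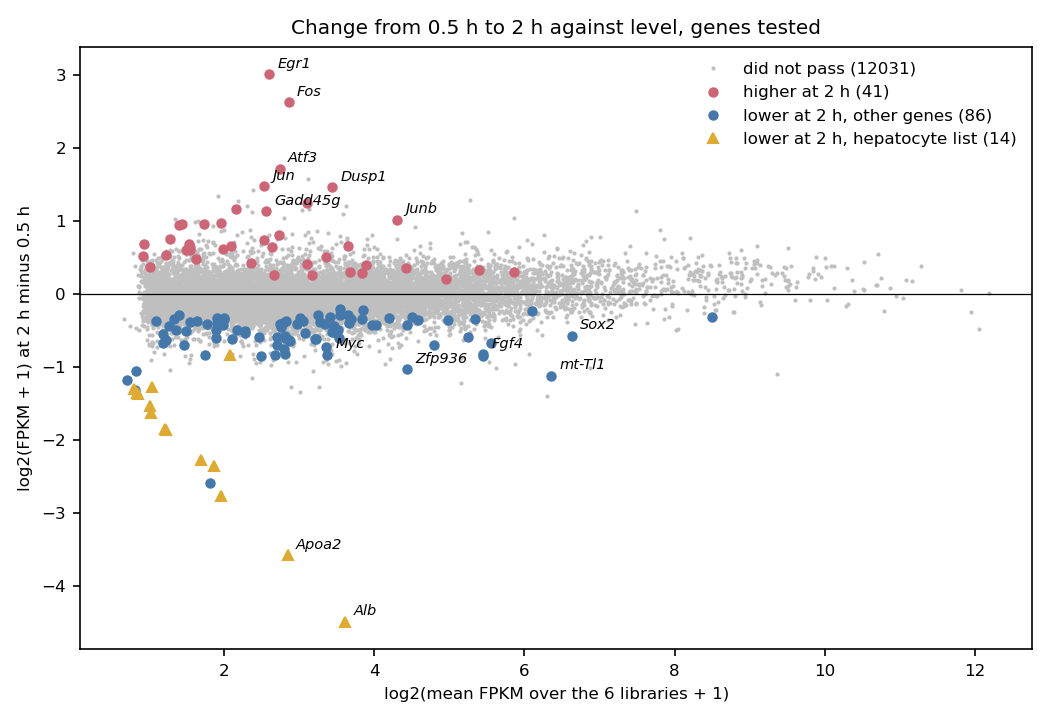
Change from 0.5 h to 2 h (difference of group means of log2(FPKM + 1), vertical axis) against the level of each of 12172 genes (log2 of the mean FPKM over the 6 libraries plus 1, horizontal axis). Red points mark the 41 genes that were higher at 2 h, blue points the 86 lower genes outside the hepatocyte list, yellow triangles the 14 lower hepatocyte genes, and grey points the genes that did not pass; Egr1 (3.01) and Fos (2.63) lie highest, and Alb (-4.49) lies lowest.

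Fos, the AP-1 subunit that pairs with Jun, was at 1.10, 0.911 and 1.06 FPKM in the 0.5 h libraries and at 11.1, 11.5 and 11.9 FPKM in the 2 h libraries. The groups lay far apart and the 2 h libraries were close to each other. Fos rose by 2.63 (SE 0.13, limma adjusted p = 8.4e-12). Egr1, a zinc finger transcription factor switched on by ERK and SRF, was at 0.384, 0.303 and 0.285 FPKM at 0.5 h and at 7.56, 9.21 and 12.8 FPKM at 2 h. All 2 h libraries were above all 0.5 h libraries, with replicate 1 the lowest at 2 h. The rise of 3.01 (SE 0.13, adjusted p = 1.0e-12) corresponds to a 30.4-fold higher mean FPKM. Egr1 reached the minimum only at 2 h, so it entered the test through the group in which it is high.

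Atf3, a stress-induced partner of Jun that mostly represses, was at 2.06, 2.48 and 1.86 FPKM at 0.5 h and at 9.76, 8.63 and 9.46 FPKM at 2 h. Jun itself was at 2.38, 1.99 and 1.84 FPKM before and at 7.34, 7.17 and 8.02 FPKM after. For both genes every 2 h library was above every 0.5 h library and the difference was many times the spread within a group. Atf3 rose by 1.72 (SE 0.097, adjusted p = 1.6e-10) and Jun by 1.47 (SE 0.087, adjusted p = 3.5e-10). Dusp1, the nuclear phosphatase that inactivates p38, JNK and ERK, was at 4.88, 4.85 and 4.61 FPKM at 0.5 h and at 14.9, 14.1 and 15.9 FPKM at 2 h. Its libraries did not overlap either, and with an SE of 0.058 the rise of 1.47 (adjusted p = 6.7e-13) was the one with the lowest adjusted p named here.

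The sequences upstream of 4 of the risers are shown because they hold the CRE (TGACGTCA), a site bound by CREB and Atf factors, or its half-site (TGACG, or CGTCA on the other strand). They come from RefSeq on GRCm38.p6, run 5′ to 3′ on the strand of the gene over the 250 bases before its start, and carry the CRE or half-site in capitals. The regions are chr12:85473640-85473889 on the + strand for Fos, chr1:191183334-191183583 on the - strand for Atf3, chr17:26508473-26508722 on the - strand for Dusp1, and chr7:45526269-45526518 on the - strand for Ppp1r15a, the stress-induced subunit that directs dephosphorylation of eIF2α.
Fos: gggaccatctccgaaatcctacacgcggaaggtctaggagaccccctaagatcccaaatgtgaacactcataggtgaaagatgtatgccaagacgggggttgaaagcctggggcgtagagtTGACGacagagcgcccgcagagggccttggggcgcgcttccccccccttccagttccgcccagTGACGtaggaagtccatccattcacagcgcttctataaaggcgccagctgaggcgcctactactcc
Atf3: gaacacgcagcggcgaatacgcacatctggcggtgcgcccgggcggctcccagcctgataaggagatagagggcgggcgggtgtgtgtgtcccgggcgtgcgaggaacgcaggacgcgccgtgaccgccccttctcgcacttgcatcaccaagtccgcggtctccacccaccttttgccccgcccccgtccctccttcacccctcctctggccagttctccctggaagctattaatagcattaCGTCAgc
Dusp1: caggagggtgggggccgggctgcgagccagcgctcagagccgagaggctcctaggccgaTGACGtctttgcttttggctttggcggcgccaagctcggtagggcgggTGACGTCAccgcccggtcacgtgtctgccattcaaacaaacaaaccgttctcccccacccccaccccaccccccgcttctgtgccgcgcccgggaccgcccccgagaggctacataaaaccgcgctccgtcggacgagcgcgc
Ppp1r15a: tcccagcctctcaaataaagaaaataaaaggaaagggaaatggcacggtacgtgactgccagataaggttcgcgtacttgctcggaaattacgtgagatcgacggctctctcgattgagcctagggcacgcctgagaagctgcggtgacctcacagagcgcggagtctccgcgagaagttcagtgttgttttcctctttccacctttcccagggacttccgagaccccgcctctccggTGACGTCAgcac

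In these 250 bases, the Fos sequence has 2 half-sites, starting 129 and 66 bases before the gene start, and Atf3 has 1 half-site 7 bases before it. Dusp1 has a full CRE 143 bases before its start and a half-site at 191 bases, and Ppp1r15a has a full CRE at 12 bases. Over windows that also take the 50 bases after the start, 32 of the 41 risers had an entry, with 37 windows, and a CRE stood in 4 of them, those of Dusp1, Maff, Ppp1r15a and Rcan1. That is 10.8% of the risers' windows, against 4.72% of the 106 windows of genes that were lower and 1.79% of 32851 promoter windows in all. The last share covers 27025 genes, expressed here or not, so it is not matched to the genes tested. The half-site, which every CRE also contains, stood in 35.1%, 25.5% and 20.8% of these windows, in the same order. The AP-1 site (TGAGTCA or TGACTCA) stood in 10.8%, 4.72% and 5.2%, among the risers in F3, Lif, Rcan1 and Sdcbp2. Among the lower genes it stood only in Hamp and Serpina1 genes, which are liver genes described below. The CArG box bound by SRF stood in 2.70%, 1.89% and 1.63%. These shares describe letters in a window and no test was made of them.

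**Figure D2:**
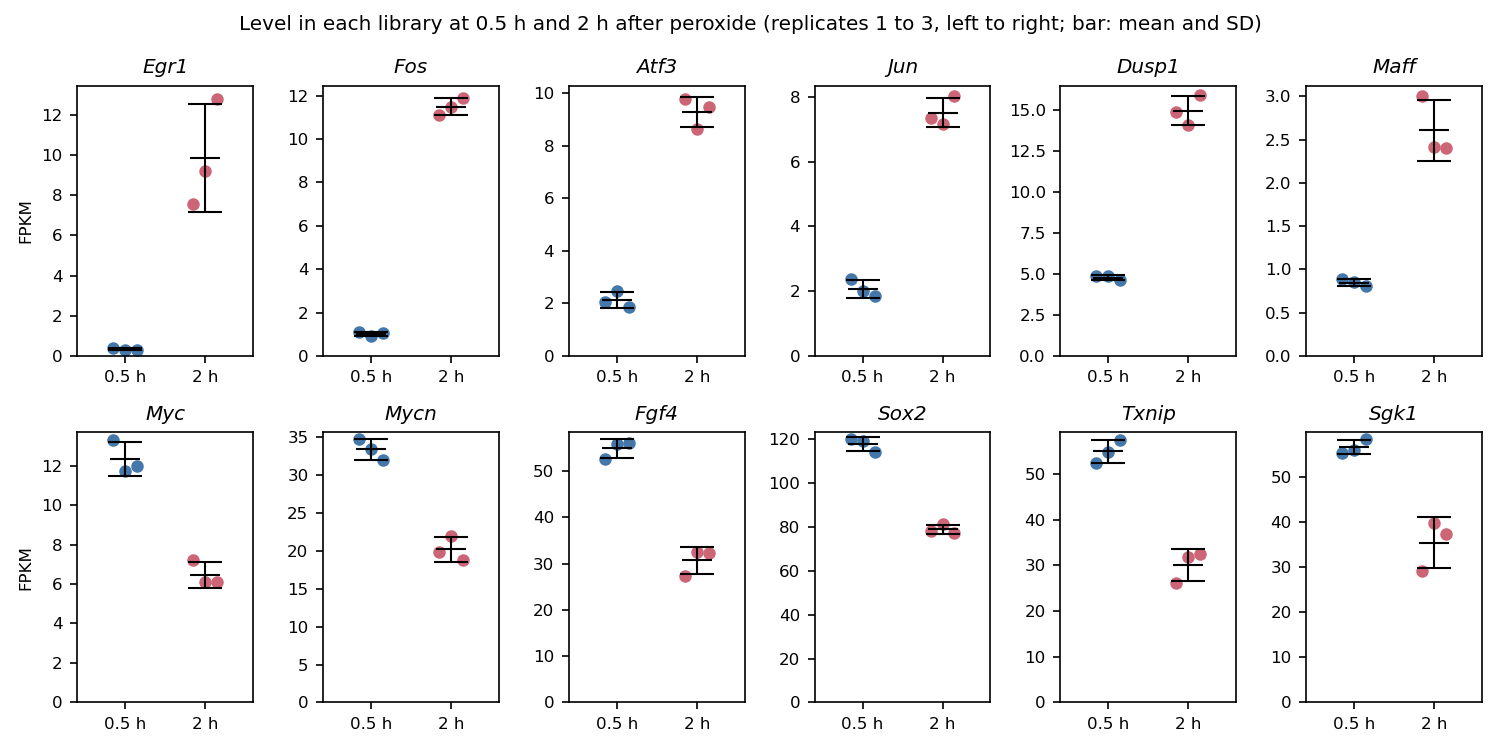
FPKM of 12 genes in each of the 3 libraries at 0.5 h (blue) and the 3 at 2 h (red), with the mean and SD as black bars and axes from 0. The top row holds genes that were higher at 2 h and the bottom row genes that were lower. In none of the 12 do the groups overlap, as in all 141 genes that passed.

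Of the 14 listed AP-1 and small Maf factors, 9 reached the expression minimum. All 9 had a change above 0 (8 of 9 with GC content and length adjusted), with a median of 0.96 against -0.03 over all genes tested, and 6 passed as higher: Fos, Atf3, Jun, Junb, Maff and Mafk. Maff reached the minimum only at 2 h, so it entered these counts through the group in which it is high. With no minimum, all 14 were tested, 13 had a change above 0 and the median was 0.61. Without 2 h replicate 1, 4 of 8 tested members passed as higher. Junb, an AP-1 subunit, was at 11.6, 12.6 and 11.8 FPKM at 0.5 h and at 33.0, 22.5 and 21.6 FPKM at 2 h. The 2 h group was higher throughout but replicate 1 stood well above the other two. Junb rose by 1.02 (SE 0.19, adjusted p = 0.0070), and without that library its change was 0.83 with an adjusted p of 0.056.

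Maff and Mafk, small Maf proteins that pair with Nrf2 and related factors on DNA, went from 0.887, 0.852 and 0.803 to 3.01, 2.41 and 2.40 FPKM and from 1.28, 1.28 and 1.15 to 2.43, 2.21 and 2.56 FPKM. Both rose, by 0.96 (adjusted p = 7.0e-05) and 0.60 (adjusted p = 0.0011). Jund, which went from 29.8 to 32.9 FPKM at 0.5 h to 38.9 to 62.3 FPKM at 2 h, and Mafg, from 11.3 to 11.9 to 12.7 to 15.0 FPKM, did not pass (adjusted p = 0.16 and 0.26). Of the members below the minimum, Fosb, another Fos paralogue, was at 0.0329, 0.0707 and 0.0181 FPKM at 0.5 h and at 0.644, 0.720 and 0.825 FPKM at 2 h. Fosl1 and Fosl2 stayed at or below 0.240 FPKM in all 6 libraries.

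Among the other immediate early genes, 26 of 34 listed members were tested, 5 were higher, 4 were lower and 17 did not pass, with a median change of 0.14. Without replicate 1, 2 of 25 tested members were higher and 4 were lower, Egr1 not being tested. Besides Egr1, the higher ones included Gadd45g, Plk3 and Btg1. Plk3, a stress-activated kinase, was at 10.0, 8.37 and 8.04 FPKM at 0.5 h and at 15.9, 13.7 and 13.8 FPKM at 2 h. Btg1, an antiproliferative factor that recruits the mRNA deadenylase, was at 3.62, 4.01 and 4.02 FPKM and then at 6.32, 6.47 and 7.02 FPKM. Neither pair of groups overlapped, and Plk3 rose by 0.66 (SE 0.084, adjusted p = 1.1e-04) and Btg1 by 0.64 (SE 0.073, adjusted p = 2.4e-05).

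Gadd45g, a stress sensor that activates p38 and JNK, rose by 1.13 (adjusted p = 0.0099) from 3.10, 2.36 and 2.40 to 10.4, 5.41 and 5.80 FPKM. Replicate 1 was the highest at 2 h by far, and without it the change was 0.87 with an adjusted p of 0.076. The 4 lower members were Myc, Sgk1, Ccn1 and Ier3, so the list as a whole did not move one way. Ier2 (61.6 to 62.7 FPKM at 0.5 h, 68.5 to 95.1 at 2 h), Btg2, Zfp36 and Klf6 did not pass. Ier5 was at 0.652 to 0.910 FPKM and then at 0.996 to 1.12 FPKM and missed the minimum. Egr2, Egr3, Egr4, Nr4a2, Nr4a3, Npas4 and Ptgs2 were below the minimum in all 6 libraries, with Egr2 at 0.0585 to 0.0988 FPKM at 0.5 h and at 0.171 to 0.390 FPKM at 2 h.

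Of the MAP kinase phosphatases and Sprouty feedback genes, 18 of 22 listed were tested and Dusp1 alone passed, with a median change of -0.14. Dusp6, the ERK phosphatase whose level follows FGF and ERK activity, was at 7.16, 7.04 and 7.09 FPKM at 0.5 h and at 3.38, 5.35 and 4.62 FPKM at 2 h. The groups did not overlap but the 2 h libraries scattered, and the change of -0.59 did not pass (adjusted p = 0.065). The changes of Spry2, Spry4, Etv4 and Etv5, which also follow FGF signalling, lay between -0.23 and 0.20 and did not pass.

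Lif, the cytokine supplied in the medium, was at 2.14, 2.18 and 2.10 FPKM at 0.5 h and at 3.62, 3.62 and 4.21 FPKM at 2 h. F3, tissue factor, went from 1.31, 1.42 and 1.16 to 2.28, 2.69 and 2.76 FPKM. Lif rose by 0.62 (adjusted p = 0.0022) and F3 by 0.64 (adjusted p = 2.2e-04), with no overlap. Ctf1, a LIF-family cytokine, rose by 0.69 (adjusted p = 0.033) from 0.233 to 0.943 FPKM at 0.5 h to 1.13 to 1.59 FPKM at 2 h. None of the 11 tested genes of the LIF receptor and Stat3 pathway passed in limma (1 higher and 2 lower at an unadjusted p below 0.05). With 1.16% of all genes called, this count does not set the list apart. Among the 11 was Socs3, a target of Stat3, at 29.8 to 31.5 FPKM and then 29.3 to 37.9 FPKM.

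Of 23 tested heat shock chaperones, 2 were higher, the stress-inducible Hsp70 genes Hspa1a and Hspa1b. Hspa1a was at 1.92, 1.5 and 1.47 FPKM at 0.5 h and at 4.68, 3.8 and 4.05 FPKM at 2 h, and Hspa1b was at 3.81, 3.02 and 3.25 and then at 6.91, 5.64 and 6.31 FPKM. The groups did not overlap in either gene, and the rises were 0.98 (adjusted p = 0.012) and 0.74 (adjusted p = 0.029). Their coding sequences are nearly identical, so the division of fragments between them is uncertain. Without replicate 1 the changes were 0.91 and 0.68, and neither passed (adjusted p = 0.071 and 0.16). Dnajb1 and Hsph1, other targets of heat shock factor, did not pass, with changes of 0.02 and -0.24.

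Among the 100 genes that were lower, 14 belong to the hepatocyte list and 86 do not. Myc, the growth-promoting transcription factor, was at 13.3, 11.7 and 12 FPKM at 0.5 h and at 7.24, 6.10 and 6.09 FPKM at 2 h. Mycn, its paralogue, was at 34.8, 33.5 and 32.0 FPKM and then at 19.8, 22.0 and 18.9 FPKM. Both fell without overlap, Myc by 0.83 (SE 0.083, adjusted p = 3.5e-06) and Mycn by 0.70 (SE 0.077, adjusted p = 1.5e-05). They were the 2 of 11 tested members of the Myc, Max and Mxd network that passed, and the median change of that list was -0.09.

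All 30 listed pluripotency factors were tested, 6 were lower, 0 were higher in the limma test (2 at an unadjusted p below 0.05), and 24 did not pass, with a median change of -0.19. Over all genes tested, 0.822% were lower and the median change was -0.03. Fgf4, the FGF ligand secreted by stem cells and a target of Sox2 and Oct4, was at 52.6, 55.9 and 56.1 FPKM at 0.5 h and at 27.3, 32.6 and 32.2 FPKM at 2 h. Sox2, a core pluripotency factor, was at 120, 119 and 114 FPKM and then at 78.2, 81.2 and 77.3 FPKM. The groups were well separated in both. Fgf4 fell by 0.82 (SE 0.084, adjusted p = 4.8e-06) and Sox2 by 0.57 (SE 0.056, adjusted p = 2.8e-06).

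Foxd3 fell by 0.60 (adjusted p = 0.022), Gbx2, a factor downstream of LIF, by 0.49 (adjusted p = 0.016), Sall4, a zinc finger partner of Oct4, by 0.35 (adjusted p = 0.012) and Zfp42, the marker also called Rex1, by 0.32 (adjusted p = 0.020). Without replicate 1, the changes of Sall4 and Zfp42 were -0.31 and -0.29 and did not pass (adjusted p = 0.070 and 0.11). Nanog was at 359, 365 and 368 FPKM and then at 272, 318 and 319 FPKM, a change of -0.27 that did not pass (adjusted p = 0.12). Pou5f1, which encodes Oct4, was at 558, 589 and 605 FPKM and then at 896, 620 and 620 FPKM (change 0.26, adjusted p = 0.41). Klf4 (-0.01), Esrrb (-0.25), Tfcp2l1 (-0.36) and Tdgf1 (-0.09) did not pass either. For Pou5f1, Esrrb and Tfcp2l1 replicate 1 was the one that differed: without it their changes were 0.09, -0.10 and -0.00.

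Txnip, the inhibitor of thioredoxin that limits glucose uptake, was at 52.4, 54.9 and 57.5 FPKM at 0.5 h and at 26.1, 31.8 and 32.4 FPKM at 2 h. It fell by 0.85 (SE 0.10, adjusted p = 6.2e-05), while its relatives Arrdc3 (-0.36) and Arrdc4 (-0.08) did not pass. Sgk1, a kinase of the PI3K pathway, fell by 0.67 (adjusted p = 0.0046) from 55.5, 56.1 and 58.5 to 29.1, 39.8 and 37.5 FPKM. Edn1, the endothelin precursor, fell by 0.68 (adjusted p = 0.0034), from 1.97, 1.83 and 1.65 to 0.764, 0.644 and 0.874 FPKM. It reached the minimum only at 0.5 h, so it entered the test through the group in which it is high.

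Hes1, the Notch and BMP target, fell by 0.53 (adjusted p = 0.044) and was the 1 of 7 tested BMP targets that passed. Tgif1, a repressor of TGF-beta signalling, fell by 0.36 (adjusted p = 0.0070) and was the 1 of 13 tested genes of Nodal and TGF-beta feedback that passed. Of 11 tested YAP and TEAD targets, F3 was higher, Ccn1 was lower and 9 did not pass. Ccn1, a target of SRF and YAP, fell by 0.54 (adjusted p = 0.0022) from 10.1, 8.71 and 8.36 to 5.89, 5.66 and 6.21 FPKM. Inhbb, a subunit of activin, fell by 0.62 (adjusted p = 0.0069), and Cited2, a coactivator that restrains hypoxia factors, by 0.44 (adjusted p = 0.012). Without replicate 1 the change of Inhbb was -0.53 (adjusted p = 0.053). Fbxo5, the inhibitor of the anaphase-promoting complex, fell by 0.59 (SE 0.076, adjusted p = 1.2e-04), and Med18, a subunit of Mediator, fell by 0.75 (SE 0.096, adjusted p = 1.1e-04), with 7.97, 8.07 and 7.21 FPKM before and 4.45, 4.39 and 3.74 FPKM after.

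The 18 tested ER chaperones and unfolded protein response genes held 2 that were lower, Xbp1, the factor spliced by Ire1 (-0.34, adjusted p = 0.036), and Herpud1, a component of ER-associated degradation (-0.32, adjusted p = 0.034). Without replicate 1 the change of Herpud1 was -0.30 and did not pass (adjusted p = 0.16). Of 22 tested genes of the integrated stress response, Ppp1r15a alone passed: it was at 12.5, 11.8 and 11.2 FPKM at 0.5 h and at 17.9, 14.6 and 15.3 FPKM at 2 h, a rise of 0.40 (adjusted p = 0.0069) without overlap. Without replicate 1 its change was 0.32 (adjusted p = 0.053). Atf4 (0.21) and Ddit3 (0.44, adjusted p = 0.069), other members, did not pass.

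Zinc finger genes with a Zfp symbol, a list made after their values were seen, had 21 of 304 tested members lower and 0 higher in the limma test (122 and 3 at an unadjusted p below 0.05), with a median change of -0.28 and 268 below 0. Of all 12172 genes tested, 0.822% were lower in the limma test (901 genes at an unadjusted p below 0.05) and 6807 were below 0. Zfp936 was at 30.0, 28.1 and 25.8 FPKM at 0.5 h and at 10.5, 14.3 and 15.1 FPKM at 2 h, and fell by 1.03 (SE 0.15, adjusted p = 4.9e-04). Without replicate 1 the list's median change was -0.16 and 9 members were lower. The median GC content of these 304 genes was 43.1%, against 49.7% for all genes tested, and the GC slope of replicate 1 is given above. With GC content and length adjusted, the list's median change was -0.17 and 248 members were below 0.

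The mitochondrial tRNA gene mt-Tl1, for leucine, was at 125, 111 and 97.9 FPKM at 0.5 h and at 46.7, 51.5 and 53.6 FPKM at 2 h. It fell by 1.12 (SE 0.15, adjusted p = 1.8e-04) and was the 1 of 17 tested mitochondrial tRNA genes that passed. It had been higher still in untreated cells at 0 h, with 211, 248 and 201 FPKM. The tRNA genes mt-Ta and mt-Tw were at 3.00 to 3.95 and at 0.930 to 1.41 FPKM at 0.5 h, at 6.60 to 6.83 and at 2.82 to 3.56 FPKM at 2 h, and at 17.6 to 40.8 and at 8.99 to 26.1 FPKM in untreated cells at 0 h, and their changes from 0.5 h to 2 h did not pass (0.81, adjusted p = 0.069, and 1.00, adjusted p = 0.10). The tRNA genes are short and lie between longer mitochondrial genes, and how fragments of the neighbours were counted is not given in the sources used here. None of 13 tested mitochondrial mRNA genes passed in limma, where 1.16% of all genes tested did, and 1 was lower at an unadjusted p below 0.05.

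The lists of oxidant defence held no called gene, where 1.16% of all genes tested were called, so at these list sizes the counts do not set them apart. The NRF2 pathway, which senses oxidants through Keap1, had 0 of 26 tested members past the limma test and a median change of 0.04, and the antioxidant enzymes had 0 of 18 and a median of 0.12. Without adjustment, 2 NRF2 genes were higher and 1 lower at p below 0.05, and no antioxidant enzyme was. Hmox1, heme oxygenase, was at 96.5, 87.4 and 85.8 FPKM at 0.5 h and at 98.8, 89.5 and 92.5 FPKM at 2 h, with overlapping groups and a change of 0.06 (adjusted p = 0.60). Srxn1, sulfiredoxin, changed by -0.10 (adjusted p = 0.45). Of 33 tested p53 targets, Ppm1d, the phosphatase that turns p53 signalling off, was lower (-0.29, adjusted p = 0.031) and no other passed. Without replicate 1 its change was -0.30 (adjusted p = 0.080). Cdkn1a, the p21 cell cycle inhibitor, was at 24.0 to 25.7 and then at 24.5 to 31.2 FPKM, and Mdm2, the p53 ubiquitin ligase, at 37.0 to 38.9 and then at 25.5 to 38.2 FPKM. The clock list (Per1 among it, -0.14), the G2/M list and the G1/S list had no called member among 12, 25 and 20 tested in the limma test, and 1, 1 and 0 at an unadjusted p below 0.05.

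The steepest falls of the step were in hepatocyte genes. Of 31 listed, 15 reached the minimum, 14 were lower at 2 h and the remaining one, Ahsg, did not pass. Of the 15, 13 reached the minimum in no 2 h library, so they entered through the group in which they are high and the count of lower genes is no support. Without 2 h replicate 1, 2 members passed (Gc and Serpina1c) and the median change was -1.63, as with it. Alb, serum albumin, was at 19.0, 28.3 and 20.2 FPKM at 0.5 h and at 0, 0.0352 and 0.0607 FPKM at 2 h, a fall of 4.49 (SE 0.94, adjusted p = 0.017) that was -4.47 without replicate 1 (adjusted p = 0.067). Apoa2, an apolipoprotein, was at 9.76, 14.2 and 12.9 FPKM and then at 0.353 FPKM in replicate 1 and listed at 0 in the other two. Fabp1, the liver fatty acid binding protein, was at 5.13 to 6.77 FPKM and then listed at 0 in all 3 libraries. Ttr, Apoa1, Gc, Apoc3, Cyp2e1 and the Serpina1 genes had the same order, and 4 liver genes outside the list, Hamp, Serpina1d, Ces1c and Mgst1, picked after their values were seen, were lower too. The Serpina1 genes are near-identical copies, so their separate values are uncertain.

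Their SEs were large because the groups used to estimate the spread differ among their own replicates. The summed list was at 68.3 FPKM in 1 of the 3 libraries at 6 h, at 78.7 and 90.8 FPKM in 2 of the 3 at 8 h, at 64.3 to 88.9 FPKM in all 3 untreated libraries at 24 h, and at 3.87 to 12.1 FPKM in every other library outside 0.5 h. All 3 libraries at 0.5 h carried the signal, so it cannot be told apart from the group, and a comparison with and without it could not be made. Its part in the other results was not tested. Of other marker lists, the summed neuronal markers lay at 83.8 to 94.2 FPKM and the fibroblast markers at 1.81 to 2.54 FPKM in the 6 libraries. In 2 h replicate 3, Gfap, Lcn2 and Lyz2 were at 0.207, 0.0427 and 0.207 FPKM, against 1.67 to 2.14, 2.00 to 2.64 and 1.17 to 1.40 FPKM in the other 5 libraries.

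**Figure D3:**
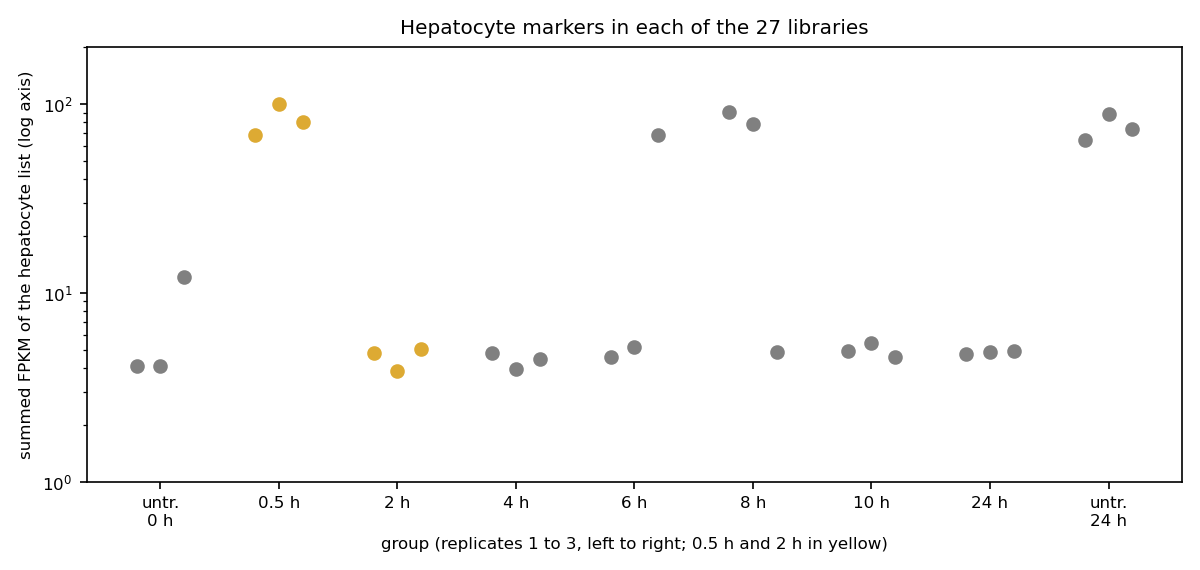
Summed FPKM of 31 hepatocyte genes (log axis) in each of the 27 libraries, by group. The 0.5 h libraries (yellow, left) lie at 68.8 to 99.8 and the 2 h libraries (yellow, right) at 3.87 to 5.01, and single libraries at 6 h and 8 h differ from the others of their group.

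Without 2 h replicate 1, 58 of 12010 genes passed, 16 higher (0.133%) and 42 lower (0.35%), and 56 of the 58 were among the 141. Of the 141 genes, 136 were still tested, all with the same direction. Their median absolute change was 0.54 without that library and 0.57 with it, and their median SE was 0.106 and 0.096. The other 5, Egr1, Maff, Ctf1, the Notch ligand Dll1 and the unnamed gene model Gm43860, were not tested then, because they exceed 1 FPKM only at 2 h and the minimum asks for 3 libraries. When the same 12172 genes were kept, 67 passed, Egr1 with a change of 3.16 (adjusted p = 1.0e-12) and Maff with 0.88 (adjusted p = 9.1e-04), while Ctf1 did not pass (adjusted p = 0.11). Fos (2.65), Atf3 (1.68), Jun (1.49), Dusp1 (1.47), Myc (-0.90), Fgf4 (-0.74), Sox2 (-0.57) and Txnip (-0.76) passed without replicate 1.

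Genes that lie close to the expression minimum pass it through the group in which they are high. Of 62 genes at 1 FPKM or more in all 3 libraries at 0.5 h and in none at 2 h, 21 were called, and of 32 in the opposite position, 5 were called. Of the 10943 genes above the minimum in all 6 libraries, 106 were called. Members just inside the minimum, in exactly 3 of 6 libraries, numbered 317, and 342 genes just outside reached it in exactly 2.

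Several lists moved more in replicate 1 than in the other 2 h libraries. The 84 tested ribosomal protein genes all had a change above 0, with a median of 0.37, yet none passed the limma test (30 were higher at an unadjusted p below 0.05). Their median shift against the 0.5 h libraries was 0.85 in replicate 1 and 0.14 and 0.13 in replicates 2 and 3, and without replicate 1 the median was 0.13, with 77 above 0. With all 6 libraries and GC content and length adjusted, the median was 0.23, with 82 above 0. The 15 tested Polycomb and DNA methylation enzymes had shifts of -0.82, -0.10 and -0.11, and none passed in limma, adjusted or not. By contrast, AP-1 and small Maf factors had median shifts of 1.12, 0.86 and 0.80.

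**Figure D4:**
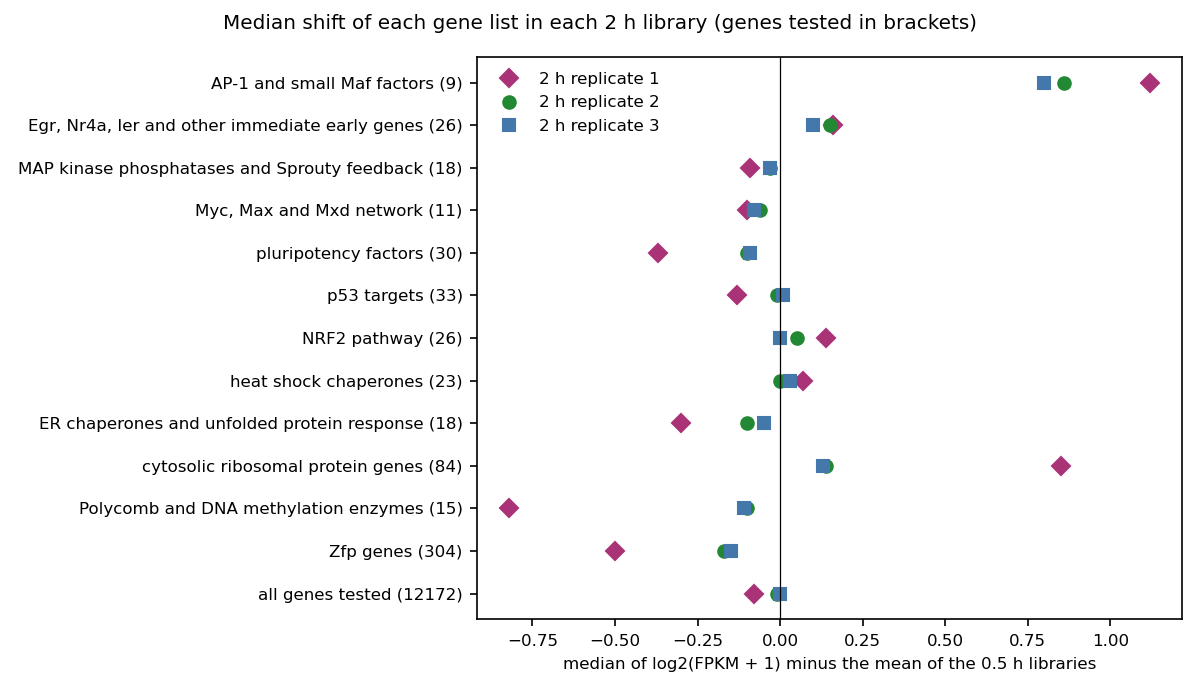
Median over the tested members of each gene list of log2(FPKM + 1) in 1 library at 2 h minus the mean of the 3 libraries at 0.5 h (horizontal axis), for replicate 1 (purple diamonds), replicate 2 (green circles) and replicate 3 (blue squares). The AP-1 list lies at 0.80 to 1.12 in all 3, whereas the ribosomal protein list lies at 0.85 in replicate 1 and at 0.13 and 0.14 in the others.

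The 2 h level is a point in a longer course, given here as group means ± SD (n = 3) with no test, since the 2 h values chose the genes. Egr1 was at 0.161 ± 0.107 FPKM in untreated cells, 9.84 ± 2.66 at 2 h, 1.74 ± 0.134 at 4 h and 0.460 ± 0.0753 at 10 h. Fos followed a slower decline, from 11.5 ± 0.401 at 2 h to 6.63 ± 0.202 at 4 h and 1.81 ± 0.162 at 10 h. Jun stayed between 5.88 and 7.51 FPKM from 2 h to 10 h and was at 2.73 ± 0.160 at 24 h. Dusp1 had 2 high points, 15.0 ± 0.896 at 2 h and 15.2 ± 0.822 at 8 h, with 8.37 ± 0.352 at 4 h between them.

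Other risers were higher still at the next time. Maff went from 2.61 ± 0.351 FPKM at 2 h to 10.7 ± 0.927 at 4 h, and Btg1 from 6.60 ± 0.369 to 15.7 ± 0.596. Over untreated 0 h and the treated times from 0.5 h to 10 h, 10 of the 41 risers had their highest mean at 2 h, 18 at 4 h, 3 at 6 h, 5 at 8 h and 5 at 10 h. Of the 86 lower genes outside the hepatocyte list, 37 had their lowest mean at 2 h and 45 at 4 h. Fgf4 went from 30.7 ± 2.97 at 2 h to 14 ± 0.206 at 4 h, Mycn from 20.2 ± 1.63 to 4.50 ± 0.211 and Sox2 from 78.9 ± 2.03 to 44.6 ± 0.196. Ccn1 and Med18 took another course, with 11.1 ± 1.23 and 6.49 ± 0.531 FPKM at 4 h, above their 2 h levels of 5.92 ± 0.278 and 4.19 ± 0.394.

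**Figure D5:**
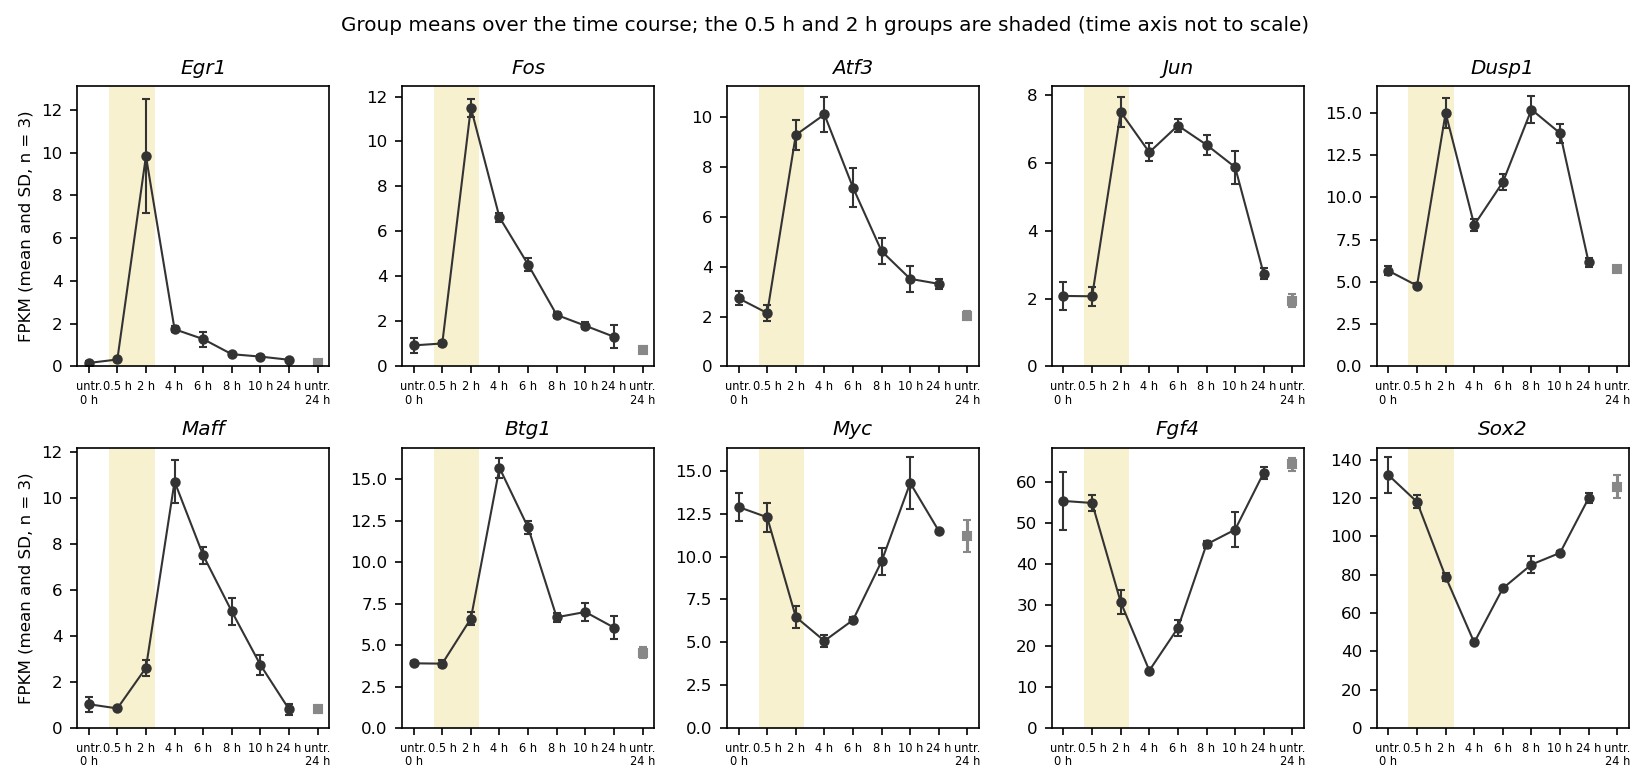
FPKM of 10 genes as group means with SD (n = 3 libraries) from untreated 0 h through the treated times to 24 h, with untreated 24 h as a grey square, the 0.5 h and 2 h groups shaded and the time axis not to scale. Egr1 and Fos are highest at 2 h, Maff and Btg1 at 4 h, and Fgf4 and Sox2 are lowest at 4 h.

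The groups compared at 4 h against untreated 0 h are not those of the step. The spread, however, was estimated over the same 27 libraries, so each gene has the SE it had in the step (Atf3, 0.097). Genes called through a small SE are favoured again, so the counts are no independent support, and the same holds at 24 h below. At 4 h, 29 of the 41 risers were higher and 1 was lower, where 12.8% of all genes tested were higher and 12.8% lower. Of the 86 lower genes outside the hepatocyte list, 57 were lower and 3 were higher. Untreated 0 h replicate 3 has a GC slope of 0.345 and a ribosomal protein shift of 0.984, like 2 h replicate 1, and without it the counts were 30 and 1 for the risers and 64 and 2 for the lower genes, against 12.9% of all genes higher and 19.7% lower. Ppm1d, lower in the step, was higher at 4 h (0.81, adjusted p = 7.4e-09).

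At 24 h, treated against untreated 24 h cells, 10 of the 41 risers were higher and 1 was lower, where 7.81% of all genes were higher and 4.6% lower. Of the 86 lower genes, 11 were lower and 9 were higher. The untreated 24 h libraries carried the hepatocyte signal (64.3 to 88.9 FPKM), and the 86 still hold liver genes outside the list. Ces1c, 1 of them, was lower at 24 h (-1.20, adjusted p = 0.0038), so the count of 11 includes this signal. Atf3 (0.50, adjusted p = 0.0017) and Lif (0.53, adjusted p = 0.0016) were among the higher ones, and Egr1 (0.17), Dusp1 (0.09), Myc (0.03), Fgf4 (-0.04) and Sox2 (-0.06) did not pass. Against untreated 0 h, the 0.5 h levels of Egr1, Fos, Atf3, Jun, Dusp1, Myc, Fgf4 and Sox2 differed by -0.25 to 0.19, and none of these 8 genes passed. Alb, higher by 3.95 at 0.5 h, did not pass there either (adjusted p = 0.13). A gene that did not pass may thus still have changed by 0.5 h.

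The median genomic span of the risers was 5309 bases, against 10630 for the 86 lower genes and 17802 for all genes tested, with no test made. By these GENCODE spans, Dusp1 (chr17:26505590-26562128) and Atf3 (chr1:191170296-191218039) were longer than that last median. The RefSeq starts used for their sequences above lie inside these spans, so the length of these genes depends on the annotation. The median GC content of the risers was 53.7%, against 48.7% and 49.7%. Of the 41 risers 33 were protein coding, and the others include the small nucleolar RNA Snora31 and the noncoding snoRNA host Snhg20. Snhg20 rose by 0.81 (adjusted p = 0.023) and did not pass without replicate 1 (0.64, adjusted p = 0.18). Snora31 rose by 1.24 (adjusted p = 0.045) from 4.38, 4.53 and 2.85 to 18, 8.41 and 7.48 FPKM, with replicate 1 far above the rest, and its change without that library was 0.88 (adjusted p = 0.33).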

How the data were processed

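The authors deposited FPKM values per gene in 7 tables of 38352 genes for the 27 libraries, per the file headers, and columns repeated between tables were identical. Trimming with cutadapt, quality control with FastQC, alignment with HISAT2, quantification with StringTie, edgeR and the build mm10 are named per the submitters' processing notes, while the annotation release and all settings were not given in the sources used here. FPKM hold no counts, so absolute depth is unknown and no count test was run. Values were used as log2(FPKM + 1), on which changes of genes near 0 look smaller than they are. Genes that reached 1 FPKM in 3 or more of the step's 6 libraries were tested with limma 3.58.1 in R 4.3.3, with a mean-variance trend, the spread estimated over all 27 libraries by group, and Benjamini-Hochberg adjustment over all genes tested at 0.05. All adjusted p-values are from that test or the same test on other libraries. The code was tested on simulated data. Positions, length and GC content came from GENCODE M21, found for 38196 genes.

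Genes were named by a rule: a panel of 21 genes, the 15 largest rises and 15 largest falls among called genes with a mean of at least 2 FPKM and no overlap, and up to 4 called members of each list (or, with none called, the 2 with the highest mean). Arrdc3, Arrdc4, Atf4, Btg2, Ces1c, Cited2, Ctf1, Ddit3, Dll1, Dnajb1, Dusp6, Edn1, Etv4, Etv5, Fbxo5, Hsph1, Ier2, Ier3, Inhbb, Jund, Klf6, Lif, Mafg, Mafk, Med18, Mgst1, Rcan1, Sall4, Sdcbp2, Serpina1d, Spry2, Spry4, Tdgf1, Tfcp2l1, Zfp36, mt-Ta and mt-Tw, as well as Gfap, Lcn2, Lyz2 and the genes below the minimum, were chosen after their values were seen. Some called genes are not reported here. The members and lists were chosen with earlier results of these data known. Alternatives changed the pseudocount, the minimum, the scaling, the trend, the libraries used, library weights, a block for the replicate number, and GC content with length.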

Additional observations from a re-analysis of the deposited data

How the results depend on the processing

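Alternatives were compared for 88 called genes, taken by the naming rule or chosen after their values were seen, not all of which are described above. The direction of each was the same under all 21 alternatives wherever it was tested, and 12 of the 88 kept their call wherever tested. Of these, Fos, Atf3, Jun, Dusp1, Myc, Fgf4, Txnip and mt-Tl1 were tested under all 21, and Egr1 under 16, Maff under 15, and Gc and Serpina1c under 17. The count of changed genes, 141, depended on the settings. It was 239 with no minimum, 85 with a minimum of 5 FPKM, 31 with the 6 libraries alone, 1605 with library weights, and 320 with GC content and length adjusted. Without the 4 libraries that stand apart it was 364, and 130 of these were among the 141. The 4 were untreated 0 h replicate 3, 2 h replicate 1, 8 h replicate 3 and 10 h replicate 3. Leaving out each library of the step in turn gave 55 to 80 genes, and 67 without 2 h replicate 1 when the same genes were tested, an alternative chosen after seeing the data. Genes with at least a 2-fold change numbered 28, with 42 at a pseudocount of 0.1, 34 with library weights or a minimum over all 27 libraries, 13 at a minimum of 5 FPKM, 9 to 14 with a library left out, and 10 without 2 h replicate 1 and the same genes tested. Leaving out a 0.5 h library takes genes high only at 0.5 h below the minimum. The cause of the other moves was not tested. Same-numbered libraries at 0.5 h and 2 h had correlations of deviations of -0.073, -0.055 and 0.024, and other pairs had -0.117 to 0.0999. With 3 libraries per group and 2 h replicate 1 standing apart, these values cannot settle whether the numbers pair the libraries. The main test used no pairing. With the replicate number as a block, 148 genes changed, 212 with the block and median-of-ratios scaling, and 359 with the block and GC content and length adjusted. Absolute depth is unknown, which limits what can be said of genes near 0 FPKM.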
